A study of Rattus norvegicus with 16 samples.

Results

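Fast-twitch skeletal muscle fibres carry their own set of contractile, calcium-handling and metabolic proteins, and 10 of these genes are described here in tissue around a healing bone defect: the myosin heavy chains Myh1, Myh2 and Myh4, the troponins Tnnt3, Tnni2 and Tnnc2, and Actn3, Atp2a1, Pvalb and Fbp2. They were matched by symbol in the deposited count table, which lists 14476 genes, and 10 of 10 were found. The genes were selected on measured values: skeletal muscle counts had been seen to differ between libraries, and slow-fibre genes and Myh2 between the membrane and the empty-defect tissue, when the list was drawn up. The p-values of the comparisons below are therefore not independent of that choice. The members are set against Acta1 and Ckm, skeletal alpha-actin and muscle creatine kinase, which stand for the total muscle signal of a library.

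RNA-seq was done on 16 libraries from 4 Sprague-Dawley rats, each of which gave 1 library to each of 4 groups. All rats had plated osteotomies on both sides and 4 weeks of healing, with a polymethyl methacrylate (PMMA) cement spacer on one side and nothing in the gap on the other. The groups were the membrane induced around the spacer (IM), tissue from the osteotomy without a spacer (PFNU, named pre-fibrous non-union in the labels), the bone beside the spacer (PMMA bone) and the bone beside the empty defect (BNED). The groups share the surgery and the plate, there is no unoperated tissue among the libraries analysed here, and the labels do not give the age of the rats.

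A mammalian fibre is fast or slow by the isoforms it uses. Myosin heavy chain is the motor of the thick filament, and Myh4, Myh1 and Myh2 encode the chains of fast fibres known as IIb, IIx and IIa, of which IIa is the most oxidative and IIb the most glycolytic; Myh7 encodes the slow chain. Troponins T, I and C form the calcium switch of the thin filament, and each exists as a fast and a slow isoform, so that each pair can be read as the share of its fast form.

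Fast-fibre RNA was present in every library, in amounts that differed widely. The 10 genes took 1.12, 2.13, 9.18 and 10.4% of all counts in the IM of rats 1 to 4, and 4.45, 8.41, 3.53 and 8.27% in PFNU. They took 0.0262, 0.132, 0.129 and 0.111% in PMMA bone and 1.32, 1.37, 0.238 and 0.203% in BNED. Bone markers (Bglap, Ibsp, Dmp1, Sost, Phex and Mepe, 6 of 6 in the table and none at 0) summed to 39.6 to 3332 CPM (counts scaled to a common library size) in IM, 272 to 2012 CPM in PFNU, 7005 to 8169 CPM in PMMA bone and 2165 to 6161 CPM in BNED, so the IM of rat 3 held more than the BNED of rat 2. Cardiac markers stayed low, at a sum of 4.37 to 130 CPM with 1 to 3 of 5 genes at 0 counts in each library. The PMMA bone library of rat 1 stands apart: its erythroid markers summed to 4611 CPM, against 225 to 736 CPM in the other 3 PMMA bone libraries and 2286 to 3796 CPM in BNED, and it had the lowest level of the 10 genes. The fold changes and ratios of the members in PMMA bone are therefore also given without it, in part as medians, and its shares library by library. Fold changes of genes outside the 10 are given with it, and the muscle covariate fit below was not run without it. In whole tissue, fewer muscle fibres and less RNA per fibre cannot be told apart.

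The 3 fast chains lie next to each other on chromosome 10 of the rat RefSeq assembly GRCr8, in the order Myh2, Myh1, Myh4, between the embryonic chain Myh3 and the neonatal chain Myh8. Their promoters are shown as a description of these neighbours, and the part of the sequences in the results below was not tested. The 250 bases before each RefSeq gene start, all on the plus strand, follow 5′ to 3′ with motif matches in capitals: chr10:52421898-52422147 for Myh4, chr10:52384662-52384911 for Myh1 and chr10:52355489-52355738 for Myh2.
Myh4: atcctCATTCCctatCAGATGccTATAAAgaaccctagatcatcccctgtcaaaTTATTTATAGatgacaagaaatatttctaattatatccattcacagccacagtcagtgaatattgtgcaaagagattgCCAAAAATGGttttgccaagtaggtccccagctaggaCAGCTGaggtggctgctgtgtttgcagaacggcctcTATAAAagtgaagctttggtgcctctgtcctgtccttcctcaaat
Myh1: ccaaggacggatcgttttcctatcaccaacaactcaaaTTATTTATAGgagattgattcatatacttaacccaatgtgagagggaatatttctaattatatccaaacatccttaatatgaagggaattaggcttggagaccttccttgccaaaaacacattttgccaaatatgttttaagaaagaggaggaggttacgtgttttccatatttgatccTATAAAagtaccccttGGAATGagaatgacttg
Myh2: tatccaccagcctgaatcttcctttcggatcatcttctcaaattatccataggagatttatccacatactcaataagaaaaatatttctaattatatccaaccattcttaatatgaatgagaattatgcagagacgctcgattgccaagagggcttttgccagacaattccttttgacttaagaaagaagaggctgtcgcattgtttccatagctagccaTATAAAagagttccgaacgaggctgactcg

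The search covered 5 motifs: the E-box CANNTG, the MCAT element with the letters CATTCC, the MEF2 site and the CArG box on both strands, and TATAAA on the gene's strand. In these 3 windows no match overlapped another. A TATAAA stands close to the start of each, 45 to 40 bases before it in Myh4, 33 to 28 in Myh1 and 30 to 25 in Myh2, and the Myh4 window holds a further one upstream. The MEF2 site match TTATTTATAG occurs in Myh4, 196 to 187 bases before the start, and in Myh1, 212 to 203 bases before it. No other searched motif was found in the Myh2 window, whereas Myh4 also holds a CArG box, a MCAT and 2 E-boxes and Myh1 a MCAT. The longest run of letters common to all 3 windows is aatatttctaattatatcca, 20 bases long, found 177 to 158 bases before the start of Myh4, 166 to 147 before Myh1 and 170 to 151 before Myh2. Of 33469 RefSeq promoter entries of this length, 5 hold it on either strand, these 3 and both entries of LOC102555216. Promoters were matched for 8 of the 10 members, without Tnnt3 and Fbp2. Among those 8, an E-box was found in 5 (65.5% of all promoter entries), TATAAA in 3 (8.06%), a MCAT in 2 (12.1%), a MEF2 site in 2 (2.96%) and a CArG box in 1 (1.497%). A match is a description of letters and not evidence of a bound factor.

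Levels below are CPM, with library sizes adjusted by TMM factors, listed for rats 1 to 4, and they are not corrected for gene length, so they are compared between groups and not between genes. Reads shared by near-identical chains may have been split in the authors' counting, which leaves the values of Myh1, Myh2 and Myh4 less certain than those of the other members.

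**Figure D1:**
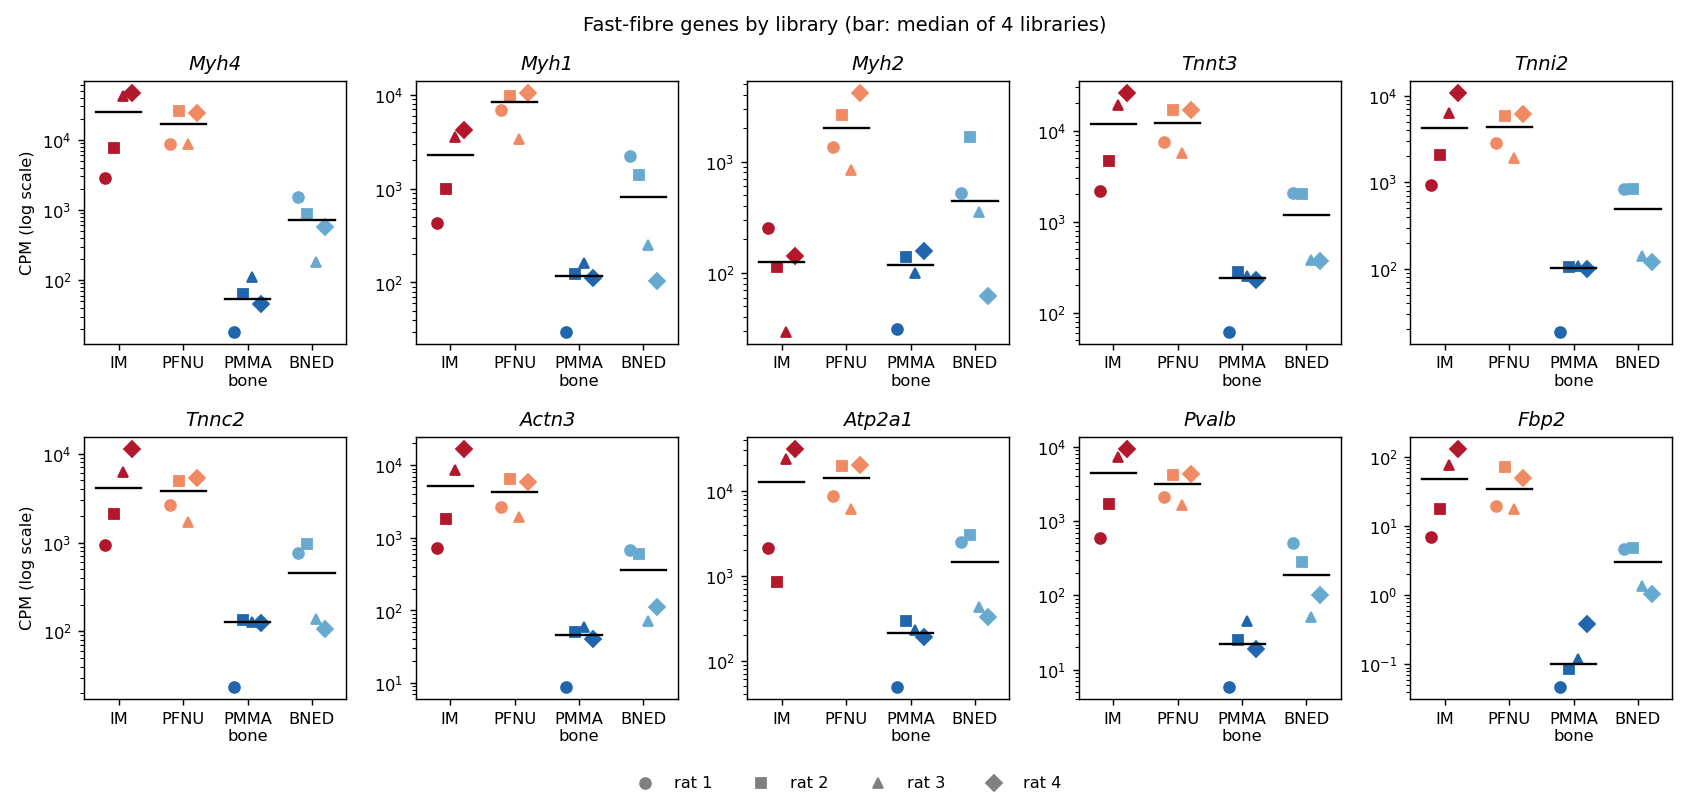
Level of each of the 10 genes in CPM (log scale) in the 4 libraries of each group, with a point per rat. Every IM and PFNU point lies above the PMMA bone points for 9 genes, with Myh2 as the exception: its IM points, 29.7 to 253 CPM, overlap the PMMA bone points, 31.3 to 157 CPM.

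Myh4, the IIb chain, was at 2824, 7520.0, 41591 and 46425 CPM in IM and at 8591, 26099.6, 8739 and 24428 CPM in PFNU. It was at 18.3, 62.8, 109 and 45.7 CPM in PMMA bone and at 1507, 882, 181 and 564 CPM in BNED. The libraries fall into 3 tiers that do not overlap: IM with PFNU at the top, BNED below them, and PMMA bone at the bottom. The group means were 24590.2 ± 22590.2 CPM in IM, 16964 ± 9608 CPM in PFNU, 59.1 ± 38.2 CPM in PMMA bone and 783 ± 561 CPM in BNED (SD, n = 4 each).

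Myh1, the IIx chain, was at 432, 999.7, 3555 and 4258 CPM in IM and at 6871, 9777, 3388 and 10441 CPM in PFNU. It was at 30.0, 123, 162 and 111 CPM in PMMA bone and at 2221, 1392, 248 and 105 CPM in BNED. Here PFNU had the highest mean level, followed by IM, BNED and PMMA bone, and each neighbouring pair in that order overlapped in at least 1 library.

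Myh2, the IIa chain, was at 253, 112, 29.7 and 141 CPM in IM and at 1369, 2626, 851 and 4150.1 CPM in PFNU. It was at 31.3, 138, 99.8 and 157 CPM in PMMA bone and at 527, 1653, 356 and 62.7 CPM in BNED. The order of the means was PFNU, BNED, IM and PMMA bone, and again neighbours in the order overlapped. In the IM of rats 3 and 4, the libraries with the most Myh4, Myh2 stood at 29.7 and 141 CPM, no higher than PMMA bone reached.

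Troponin T, encoded in fast fibres by Tnnt3, anchors the troponin complex to tropomyosin. Tnnt3 was at 2194, 4695, 19131 and 26031 CPM in IM and at 7593, 16798, 5676 and 16763 CPM in PFNU. It was at 62.2, 280.4, 256 and 227 CPM in PMMA bone and at 2098, 2015, 382 and 373 CPM in BNED. PMMA bone and BNED did not overlap, and both lay below every IM and PFNU library. Tnni2, the inhibitory subunit, ranged over 929 to 10831 CPM in IM, 1927 to 6140.1 CPM in PFNU, 18.8 to 107 CPM in PMMA bone and 121 to 846 CPM in BNED. Tnnc2, the calcium-binding subunit, ranged over 934 to 11444 CPM in IM, 1724 to 5392 CPM in PFNU, 23.5 to 134 CPM in PMMA bone and 107 to 958 CPM in BNED. Tnnc2 thus overlapped between the groups of bone, and Tnni2 did not.

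Actn3 encodes the alpha-actinin that ties thin filaments to the Z disc in fast fibres. It was at 719, 1818, 8599 and 17050.0 CPM in IM and at 2661, 6528, 1934 and 5815 CPM in PFNU. It was at 8.78, 50.9, 59.0 and 40.1 CPM in PMMA bone and at 690.1, 600.4, 72.4 and 113 CPM in BNED. The tiers were those of Myh4, with no overlap between BNED and PMMA bone.

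Calcium handling is represented by Atp2a1, the calcium pump of the fast sarcoplasmic reticulum, and Pvalb, the cytosolic calcium buffer parvalbumin. Atp2a1 was at 2135, 843, 23666 and 31589.7 CPM in IM and at 8766, 19885, 6119 and 19966 CPM in PFNU. It was at 48.7, 296, 229 and 191 CPM in PMMA bone and at 2491, 2984, 425 and 330.5 CPM in BNED. The IM of rat 2 is out of step, with less Atp2a1 than the IM of rat 1, although it had more of Myh4, Myh1, Tnnt3, Tnni2, Tnnc2, Actn3, Pvalb and Fbp2. Pvalb was at 599.8, 1719.7, 7234 and 9513 CPM in IM and at 2147, 4161, 1671 and 4259 CPM in PFNU. It was at 5.79, 25.4, 45.6 and 19.1 CPM in PMMA bone and at 508, 278, 50.9 and 101 CPM in BNED. The lowest BNED library of Pvalb, that of rat 3, lay just above the highest PMMA bone library, that of the same rat.

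Fbp2 encodes the muscle form of fructose bisphosphatase, an enzyme of glycogen synthesis from lactate. It was at 7.005, 17.9, 77.8 and 133 CPM in IM and at 19.6, 71.6, 17.7 and 49.9 CPM in PFNU. It was at 0.0467, 0.0849, 0.121 and 0.382 CPM in PMMA bone and at 4.64, 4.86, 1.35 and 1.03 CPM in BNED. The PMMA bone values rest on 2, 5, 8 and 27 counts, so they carry large counting error, and they lay below every BNED library.

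The total muscle signal was highest in IM and PFNU as well. Acta1 was at 5622 to 82078 CPM in IM, 12871 to 42945 CPM in PFNU, 678 to 4756 CPM in PMMA bone and 785 to 12970.5 CPM in BNED. Ckm was at 2892 to 46096 CPM in IM, 5573 to 18541 CPM in PFNU, 92.7 to 571 CPM in PMMA bone and 347 to 3383 CPM in BNED. Both genes overlapped between PMMA bone and BNED. The pair did not keep a fixed ratio: there were 1.57 to 1.94 Acta1 counts per Ckm count in IM, 2.08 to 2.46 in PFNU, 5.01 to 8.32 in PMMA bone and 2.26 to 3.83 in BNED. A measure of the members against the pair therefore depends in part on which of the pair is used.

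The first comparison set PMMA bone against BNED, the question being what the spacer changes in bone next to it. Fast-fibre genes were lower in PMMA bone: Fbp2, Myh4 and Pvalb fell, and the other 7 genes had lower estimates that did not pass the test. Of the 12857 genes tested with edgeR (quasi-likelihood test, Benjamini-Hochberg adjustment), 1.4% were called lower in this comparison, and 3 of the 10 members were. On the log2 scale the change was -4.14 for Fbp2 (SE 0.97, adjusted p = 0.0325), -3.73 for Myh4 (SE 0.91, adjusted p = 0.0345) and -3.29 for Pvalb (SE 0.89, adjusted p = 0.0468). Each was lower in PMMA bone than in BNED in 4 of 4 rats. Without PMMA bone rat 1 they were at -3.89 for Fbp2 (adjusted p = 0.0227), -3.43 for Myh4 (adjusted p = 0.0263) and -2.96 for Pvalb (adjusted p = 0.0396). Fibrous and bone markers differed in the opposite direction, with higher sums in PMMA bone. The 6 fibrous markers, none at 0, summed to 63030 to 100409 CPM in PMMA bone and 24602 to 50146 CPM in BNED, with no overlap. Bone markers did not overlap either, at the sums given above. Erythroid sums were lower than in BNED in every PMMA bone library except that of rat 1, where the sum was higher. Of the 6 fibrous genes 2 rose, the collagen Col3a1 (1.70, adjusted p = 0.0338) and the matrix gene Postn (1.41, adjusted p = 0.0482), where 3.51% of all genes were called higher, and the part of these tissues in the fast-fibre values was not tested.

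Among the members without a call, Myh1 was estimated at -3.22 on the log2 scale (SE 0.92, adjusted p = 0.0558), Actn3 at -3.22 (SE 0.97, adjusted p = 0.0663) and Atp2a1 at -3.03 (SE 1.04, adjusted p = 0.0993). Myh2 had -2.61 (SE 0.85, adjusted p = 0.0845), and Tnnt3, Tnni2 and Tnnc2 had -2.56, -2.56 and -2.26 (adjusted p = 0.0803, 0.0862 and 0.123). The unadjusted p was under 0.05 for 10 of 10 members. Their median was -3.12 (-2.79 without PMMA bone rat 1), against -0.01 over all genes tested. In 7 of them the groups of libraries did not overlap, a pattern seen in 7.05% of all genes in this direction. Apart from Myh2 the members rise and fall together across libraries, as given below, so these counts are not 10 separate results.

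The calls in this comparison are few and depend on the libraries used. Leaving out PMMA bone rat 2, 3 or 4, or BNED rat 1, 2 or 3, left 0 members called; without PMMA bone rat 1, the library that stands apart, 3 were called, and without BNED rat 4, 4 were. With the rat as a block, which is the pairing by animal, only Fbp2 was called (adjusted p = 0.0414, against 0.0533 for Myh4 and 0.0723 for Pvalb), and DESeq2 called 10. All 10 estimates were negative under every setting.

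The estimates for slow-fibre genes lay close to 0 in this comparison. Myh7 had a log2 fold change of -0.13 (SE 0.82), Tnnt1 -0.15 (SE 0.83), Tnnc1 -0.20 (SE 0.82), Tnni1 -0.28 (SE 0.83) and Atp2a2, the slow and cardiac calcium pump, -0.36 (SE 0.52), with adjusted p of 0.706 to 0.937. Of 12 slow-fibre genes 0 were called, 0 had an unadjusted p under 0.05 in edgeR, and their median was -0.24. Among 16 further fast-fibre genes 0 were called and 8 had an unadjusted p under 0.05, with a median of -1.79. Acta1 and Ckm had -1.14 (SE 0.93, adjusted p = 0.470) and -2.18 (SE 0.91, adjusted p = 0.161).

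**Figure D2:**
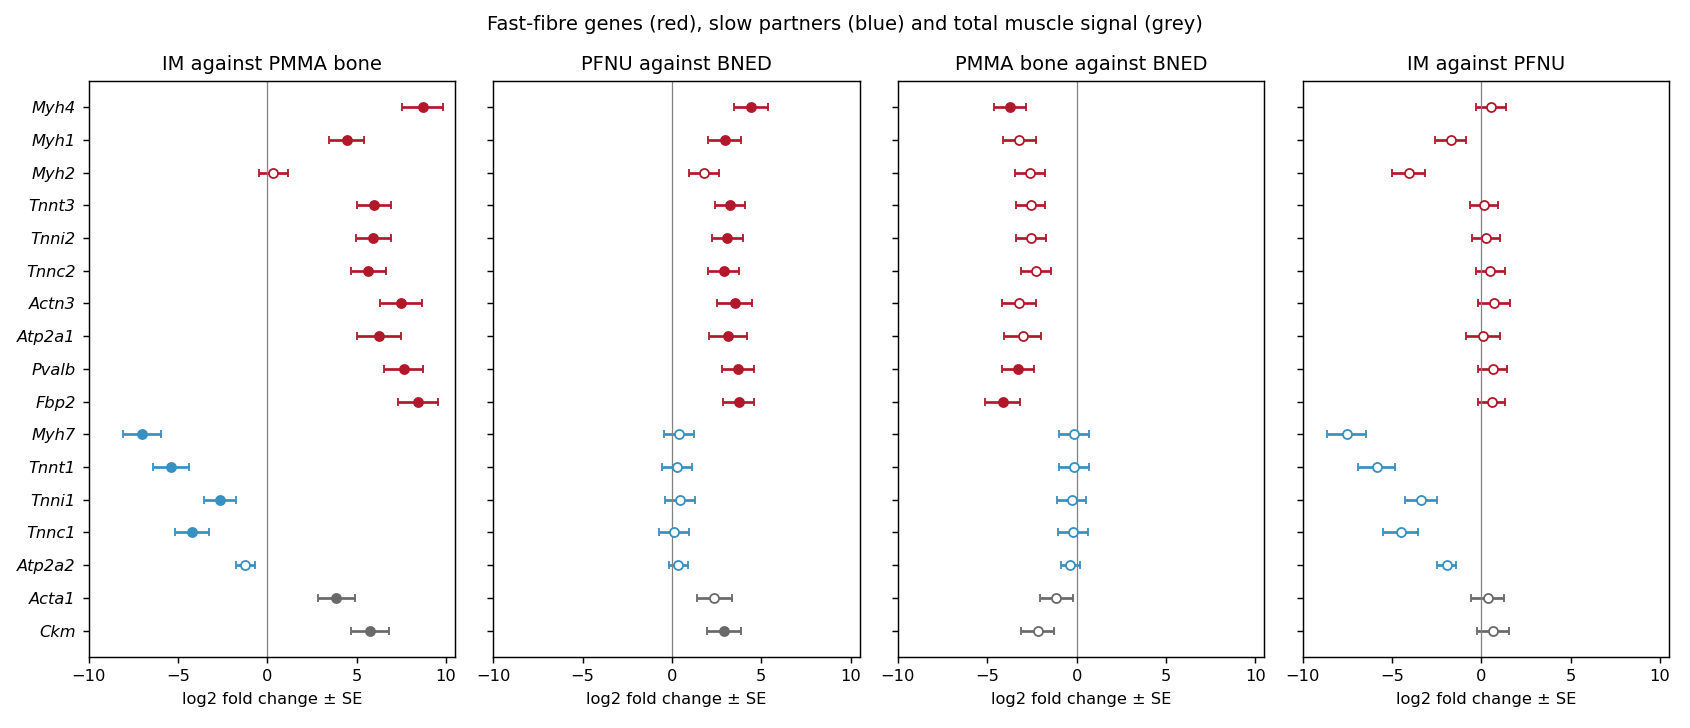
Log2 fold change ± SE from edgeR for the 10 genes and for slow-fibre and muscle-signal genes in each comparison, positive where the group named first is higher. In IM against PMMA bone the fast and slow genes lie on opposite sides of 0, from 8.70 for Myh4 to -6.99 for Myh7.

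The membrane was compared with the bone of the same limb. Fast-fibre genes were far higher in IM: 9 of 10 rose, where 11.3% of all tested genes were called higher. Myh4 rose by 8.70 on the log2 scale (SE 1.14, adjusted p = 0.000333), Fbp2 by 8.44 (SE 1.11, adjusted p = 0.000333), Pvalb by 7.63 (SE 1.09, adjusted p = 0.000554) and Actn3 by 7.47 (SE 1.18, adjusted p = 0.00108). Atp2a1, Tnnt3, Tnni2 and Tnnc2 had 6.25, 5.98, 5.93 and 5.66, and Myh1 had 4.44 (SE 0.97, adjusted p = 0.00647). Each of the 9 was higher in IM in 4 of 4 rats with no overlap between the groups, which was so for 7.75% of all genes. Myh2 was the exception, at 0.33 (SE 0.80, adjusted p = 0.795) and higher in IM in 1 of 4 rats. Without PMMA bone rat 1 the same 9 were called, Myh4 at 8.40 and Myh2 at 0.03, and the median of the 10 was 5.80, against 6.11 with it. The kind of tissue and its muscle content cannot be told apart in this design.

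Slow genes went the other way between IM and PMMA bone. Of 12 tested, 7 fell, where 11% of all genes were called lower, among them Myh7 (-6.99, SE 1.07, adjusted p = 0.00091), Tnnt1 (-5.41, SE 1.01, adjusted p = 0.00288), the ventricular and slow light chain Myl2 (-5.02) and Tnnc1 (-4.20, SE 0.94, adjusted p = 0.00721). Tnni1 fell by 2.65 (SE 0.89, adjusted p = 0.0440), and Atp2a2 had -1.22 (SE 0.53, adjusted p = 0.107). All 16 of the further fast-fibre genes rose, with the largest changes in the fast myosin-binding protein gene Mybpc2 (7.51), the Z-disc gene Myoz1 (6.68), the muscle glycogen phosphorylase Pygm (6.13) and the muscle phosphoglycerate mutase Pgam2 (5.75). Acta1 rose by 3.86 (SE 1.03, adjusted p = 0.0167) and Ckm by 5.76 (SE 1.07, adjusted p = 0.00289).

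The same contrast in the limb with the empty defect sets PFNU against BNED. Fast-fibre genes were higher in PFNU: 9 of 10 members rose, where 15% of all tested genes were called higher. Myh4 had 4.44 (SE 0.94, adjusted p = 0.00307), Fbp2 3.73 (SE 0.86, adjusted p = 0.00533), Pvalb 3.71 (SE 0.91, adjusted p = 0.00741) and Actn3 3.52 (SE 0.98, adjusted p = 0.0151). Tnnt3, Atp2a1, Tnni2, Myh1 and Tnnc2 had 3.27, 3.14, 3.10, 2.94 and 2.90. The groups did not overlap for 9 members, as for 18.9% of all genes. Myh2 had 1.79 (SE 0.82, adjusted p = 0.109) and was higher in PFNU in 4 of 4 rats. With the rat as a block 7 were called, without Atp2a1 (adjusted p = 0.0755) and Myh1 (adjusted p = 0.0579).

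In this limb the slow genes did not separate from 0: Myh7 had 0.40 (SE 0.83, adjusted p = 0.742), Tnnt1 0.30, Tnnc1 0.12, Tnni1 0.45 and Atp2a2 0.36, and 0 of 12 were called, with 0 at an unadjusted p under 0.05 in edgeR. Of the 16 further fast-fibre genes 15 rose, led by Mybpc2 (3.67), Myoz1 (3.28), Pygm (3.14) and the M-band gene Myom2 (3.12). Ckm rose by 2.92 (SE 0.94, adjusted p = 0.0295), and Acta1 had 2.37 (SE 0.97, adjusted p = 0.0735). Whether the contrast of tissue and bone differs between the limbs was not tested, and each of these contrasts shares its bone libraries with the comparison of PMMA bone and BNED.

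Membrane against empty-defect tissue is treated here as the contrast used to choose the genes, since slow-fibre genes and Myh2 were known to differ in it, so its values are given as a description only. Myh2 was lower in IM in 4 of 4 rats, at -4.07 on the log2 scale (SE 0.90), and Myh1 was lower in 3 of 4, with -1.72 (SE 0.86). Of the members 1, Myh2, was past the threshold, beside 0.498% of all genes called lower, and nothing is read from that count. The other 8 genes had estimates of 0.09 to 0.73, and each was lower in IM than in PFNU in rats 1 and 2 and higher in IM in rats 3 and 4. Myh4, at 0.54 (SE 0.82), is among them. In rats 1 and 2 all 3 fast chains were lower in IM. In rats 3 and 4 Myh4 was higher in IM and Myh2 lower, and Myh1 went with Myh4 in rat 3 and with Myh2 in rat 4, whereas the troponins, Actn3, Atp2a1, Pvalb and Fbp2 went with Myh4 in all 4.

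The balance among the heavy chains was taken as the percentage of each chain in the summed counts of Myh4, Myh1, Myh2 and Myh7, with no correction for length. Counting error was small, with 95% Wilson intervals of at most 1.501 points to either side for any share in the report, and covers counting only. Myh4 made up 80.3, 87.0, 92.1 and 91.3% of chain counts in IM and 49.5, 66.5, 64.0 and 58.1% in PFNU. It made up 4.49, 2.78, 15.8 and 3.895% in PMMA bone and 29.7, 14.0, 14.0 and 69.9% in BNED. Most chain counts of IM libraries were thus of the IIb chain, PFNU libraries were mixed with IIb in the majority or close to it, and in PMMA bone IIb was a minority. The shares were not shown to be free of the muscle signal. The mean log2 CPM of Acta1 and Ckm was 11.98, 12.61, 15.15 and 15.91 in IM, so that the libraries of rats 3 and 4 had both the most muscle signal and the highest Myh4 shares of the group. It was 7.97, 10.69, 9.52 and 10.23 in PMMA bone and 11.99, 12.69, 9.85 and 9.03 in BNED. There the order differed: BNED rat 4 had the least signal and the highest share of its group, 69.9%. PMMA bone rat 2 had the most signal and the lowest share of its group, 2.78%. The part of the signal in the shares was not tested.

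**Figure D3:**
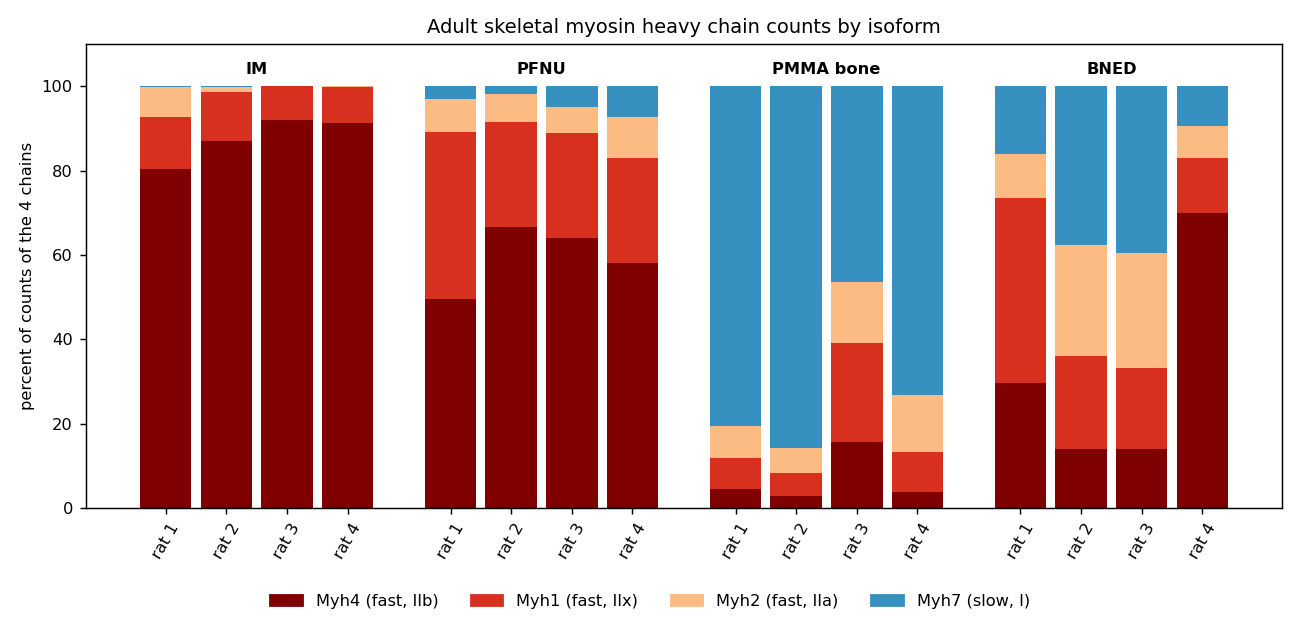
Percentage of the summed counts of Myh4, Myh1, Myh2 and Myh7 that each chain takes, with a stacked bar per library (rats 1 to 4 in each group). Myh4 fills 80.3 to 92.1% of the IM bars, and Myh7 fills 46.3 to 85.7% of the PMMA bone bars.

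In bone beside the spacer most chain counts were of the slow chain in rats 1, 2 and 4, and the largest single part in rat 3. Myh7 took 0.232, 0.106, 0.00733 and 0.0126% of chain counts in IM and 3.04, 1.87, 4.98 and 7.21% in PFNU. It took 80.5, 85.7, 46.3 and 73.3% in PMMA bone and 16.2, 37.7, 39.4 and 9.34% in BNED. Every PMMA bone library held a larger share of Myh7 than any BNED library. Myh1 took 12.3, 11.6, 7.87 and 8.38% in IM, 39.6, 24.9, 24.8 and 24.8% in PFNU, 7.34, 5.46, 23.5 and 9.48% in PMMA bone and 43.8, 22.1, 19.2 and 13.01% in BNED. Myh2 took 7.18, 1.2999, 0.0656 and 0.277% in IM, 7.88, 6.69, 6.23 and 9.87% in PFNU, 7.66, 6.09, 14.4 and 13.4% in PMMA bone and 10.4, 26.2, 27.4 and 7.77% in BNED.

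The mean Myh4 share was 25.1 points lower in PMMA bone than in BNED, at 6.74 ± 6.08% against 31.9 ± 26.4% (SD, n = 4 each), and the groups overlapped, since the PMMA bone of rat 3 at 15.8% exceeded the BNED of rats 2 and 3. It was -24.4 points without the PMMA bone of rat 1 and -12.5 without the BNED of rat 4, and over the libraries left out in turn it ran from -31.1 to -12.5. The mean share was 80.9 points higher in IM than in PMMA bone (80.2 without PMMA bone rat 1), at 87.7 ± 5.39% against 6.74 ± 6.08%, and 27.6 points higher in PFNU than in BNED, at 59.5 ± 7.56% against 31.9 ± 26.4%. The difference of IM and PFNU, 28.2 points, is a description, since slow chains and Myh2 were known to differ there. Counting Myh3 and Myh8 as well, the embryonic and neonatal chains, Myh3 took 0.0958 to 1.87% of the counts of the 6 chains in IM, 1.05 to 1.99% in PFNU, 8.60 to 14.8% in PMMA bone and 1.66 to 7.62% in BNED.

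The paired troponin and calcium-pump isoforms also separated the groups of bone. Tnni2 made up 97.7 to 99.8% of the counts of Tnni2 and Tnni1 in IM and 87.9 to 95.6% in PFNU. It made up 22.7, 19.1, 45.0 and 25.2% in PMMA bone and 76.99, 53.2, 53.4 and 85.5% in BNED. The fast form was thus in the majority in every library of IM, PFNU and BNED and in the minority in every library of PMMA bone. Tnnc2 made up 28.8, 28.5, 55.2 and 32.4% of its pair with Tnnc1 in PMMA bone and 80.8, 62.6, 58.8 and 83.5% in BNED. Tnnt3 made up 34.9, 29.6, 58.3 and 31.5% of its pair with Tnnt1 in PMMA bone and 84.5, 67.1, 64.2 and 91.1% in BNED. Atp2a1 made up 12.1, 24.0, 33.6 and 21.7% of its pair with Atp2a2 in PMMA bone and 79.8, 63.9, 45.3 and 53.9% in BNED. For each of the 4 pairs every PMMA bone library lay below every BNED library, with rat 3 the highest of PMMA bone. Atp2a2 is also made outside muscle, and the part of that in the Atp2a1 shares was not tested.

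**Figure D4:**
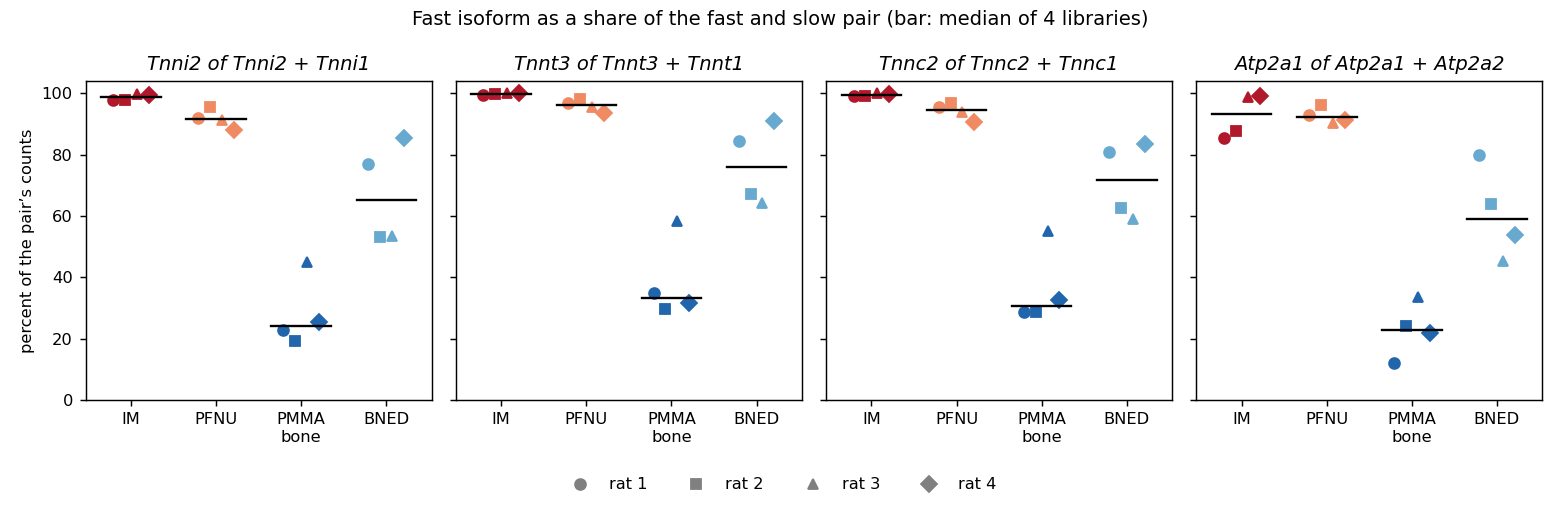
Percentage of the counts of each fast and slow pair that the fast isoform takes, with a point per library and a bar at the median of 4. For Tnni2 the PMMA bone points lie at 19.1 to 45.0% and the BNED points at 53.2 to 85.5%, and the IM points lie at 97.7% or above.

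Set against the total muscle signal, the members still differed between the bones in their means. The measure is the log2 CPM of a gene minus the mean log2 CPM of Acta1 and Ckm in the same library. In PMMA bone against BNED the difference of means was negative for 10 of 10 genes, from -0.65 for Tnnc2 to -2.62 for Fbp2, and the groups did not overlap for Atp2a1 and Fbp2. Without PMMA bone rat 1 it ran from -0.58 to -2.85. The size depended on the reference: against Ckm alone the differences were -0.09 for Tnnc2, -0.20 for Myh2 and -0.44 for Tnni2, and against Acta1 alone they were -1.20, -1.31 and -1.56. All 10 differences were negative against Acta1, against Ckm and against a wider muscle list, with 6, 2 and 6 genes without overlap. Of the 11 genes in the wider list, 6 were in the count table. Myh4 stood at -3.77, -4.71, -2.74 and -4.71 in PMMA bone and at -1.43, -2.91, -2.35 and 0.11 in BNED. Atp2a1 stood at -2.36, -2.48, -1.68 and -2.65 in PMMA bone and at -0.71, -1.15, -1.12 and -0.66 in BNED. Per unit of total muscle signal, fast-fibre RNA was thus lower on average beside the spacer, with the libraries of rat 3 the closest for Myh4. Within rats the ratio was higher in PMMA bone in rat 3 for Tnnc2 (0.21), Pvalb (0.18) and Actn3 (0.04), and in rat 4 for Myh2 (0.12). For the other members it was lower in every rat.

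Against PMMA bone, IM had higher ratios for 8 of 10 genes, of which 6 had no overlap, and lower ones for Myh1 and Myh2. The sign for Myh1 turned with the reference, from a difference of -0.17 against the pair to 0.77 against Acta1, -1.10 against Ckm and 0.995 against the wider list, and ran from -0.38 to 0.14 with a library left out. Atp2a1 ran from 0.01 to 2.11 and Tnnc2 from 0.11 to 2.203 over the references, and 4 genes were higher without overlap against Ckm alone and 7 against Acta1 or the wider list. Myh4 stood at -0.51, 0.27, 0.20 and -0.41 in IM, all above PMMA bone. Myh2 stood at -4.00, -5.80, -10.25 and -8.77 in IM and at -3.00, -3.58, -2.88 and -2.94 in PMMA bone. Relative to the pair it was thus lower in every IM library, whereas against Acta1 alone or the wider list Myh2 overlapped between the groups. PFNU against BNED had higher ratios for 9 of 10 genes, and Atp2a1 alone had no overlap (4 genes against the wider list, 0 against Acta1), at -0.60 to -0.40 in PFNU against -1.15 to -0.66 in BNED. Between IM and PFNU, as a description, Myh1, Myh2 and Atp2a1 had lower ratios in every IM library. The mean differences were -1.98, -4.03 and -0.85, and Atp2a1 overlapped against Acta1 or the wider list. Against the wider list 6 members were higher in IM without overlap: Myh4, Tnnt3, Tnni2, Tnnc2, Actn3 and Pvalb. Against that list 2 were lower without overlap, Myh1 and Myh2. Against the pair, Acta1 or Ckm, 0 members were higher without overlap. Tnni2 kept nearly the same ratio in the 4 PFNU libraries, within a range of 0.09.

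**Figure D5:**
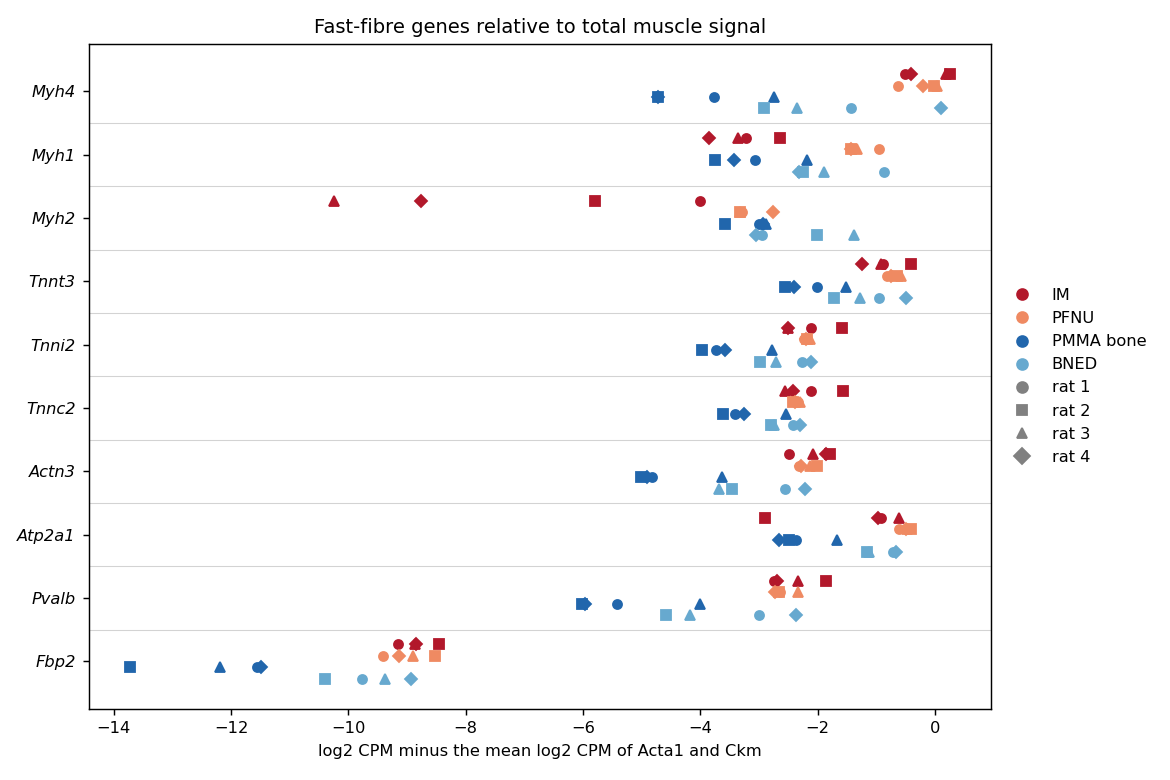
Log2 CPM of each gene minus the mean log2 CPM of Acta1 and Ckm, with a point per library coloured by group. The PMMA bone points lie to the left of the BNED points for Atp2a1 and Fbp2, and the IM points of Myh2 reach -10.25, far left of the other groups.

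The tested counterpart of the ratio is an edgeR fit across all genes with the mean log2 CPM of Acta1 and Ckm as a covariate. With this covariate 8 of 10 members were called lower in PMMA bone than in BNED, where 7.44% of all genes were called lower. Fbp2 had -2.91 (SE 0.44, adjusted p = 0.00548), Myh4 -2.78 (SE 0.57, adjusted p = 0.0109), Pvalb -2.03 (SE 0.49, adjusted p = 0.0181) and Tnnt3 -1.22 (SE 0.26, adjusted p = 0.0123). Tnnc2 (-0.74, adjusted p = 0.0588) and Myh2 (-1.79, adjusted p = 0.162) were not called. In IM against PMMA bone 7 were higher, where 5.11% of all genes were called higher, led by Myh4 (4.94, SE 0.87, adjusted p = 0.00404) and Fbp2 (4.13, SE 0.57, adjusted p = 0.0011). Atp2a1 (0.88, adjusted p = 0.376), Myh1 (0.08, adjusted p = 0.954) and Myh2 (-0.95, adjusted p = 0.599) were not called.

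In PFNU against BNED 0 of 10 members were called with the covariate, where 7.68% of all genes were called higher. An unadjusted p under 0.05 in edgeR was seen for 3 members. All 10 estimates stayed positive, with a median of 0.76. Myh4 had 2.05 (SE 0.79, adjusted p = 0.100) and Tnnt3 0.90 (SE 0.33, adjusted p = 0.0868). The covariate itself did not overlap between IM (11.98 to 15.91 on the log2 scale) and PMMA bone (7.97 to 10.69), or between PFNU (13.05 to 14.78) and BNED (9.03 to 12.69), so in these comparisons the fit leans on a straight line between groups. It did overlap between PMMA bone and BNED, with the lowest value, 7.97, in PMMA bone rat 1. The covariate fit was not repeated without that library, or with Acta1 or Ckm alone. The ratio of Acta1 to Ckm did not overlap between PMMA bone and BNED, so the fit may not hold muscle signal equal.

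The members moved together across libraries, apart from Myh2. Over 16 libraries, the 36 pairs of members without Myh2 had Pearson correlations of log2 CPM of 0.913 to 0.998, and the 9 pairs with Myh2 had 0.401 to 0.668. These are descriptions, since the libraries fall into groups and share the overall muscle content. The genes outside the list whose pattern was most like the mean of the members were Mybpc2 and Myoz1 (r = 0.993 each), Eno3 and Pgam2 (0.988 each), Pygm (0.986) and the fast light chain Myl1 (0.984). Myh4 alone was most like Pvalb (0.996), Mybpc2 (0.990), Actn3 (0.989) and Tnnt3 (0.984). Myh2 was most like Tceal7 (0.872), Lrrc52 (0.864), the heart-type lactate dehydrogenase subunit Ldhb (0.833) and Sohlh2 (0.830).

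Further muscle lists held fewer called genes, to be read against the 11.3% of all genes called higher and 11% called lower in IM against PMMA bone and the 15% called higher in PFNU against BNED. Among 7 oxidative muscle genes 3 rose in IM against PMMA bone, the muscle cytochrome oxidase subunit Cox6a2 (2.72), the mitochondrial creatine kinase Ckmt2 (2.65) and the ADP/ATP carrier Slc25a4 (2.43), and 1, Slc25a4 (1.90), rose in PFNU against BNED, a share close to that of all genes. Of 12 developmental and regeneration genes, the myogenic factors Myod1 (2.94) and Myf6 (2.64) rose and the satellite cell cadherin Cdh15 fell by 1.29 in IM against PMMA bone, while Myod1 (2.72), Myh8 (2.51) and Chrna1 (1.26) rose in PFNU against BNED. Of 10 tested denervation and atrophy genes, Musk (2.97), Trim63 (2.79) and Fbxo32 (1.47) rose in IM against PMMA bone, and Musk (2.87), Fbxo32 (1.59), Chrna1 and Ncam1 (0.82) rose in PFNU against BNED. Of 11 tested regulators of fibre type 1 rose in IM against PMMA bone, Tbx15 (1.75), which is no more than the share of all genes, and Tbx15 (1.84), Tead1 (1.59) and Six4 (1.58) were among those that rose in PFNU against BNED. None of these 4 lists held a called gene in PMMA bone against BNED, where 0, 0, 1 and 0 of them had an unadjusted p under 0.05 in edgeR, in the order given. Smooth muscle markers were higher in the group named first in each of these 3 comparisons. All 4 rose in IM against PMMA bone (median 1.89) and in PFNU against BNED (median 3.01), with no overlap between the groups, which is the direction of the fast genes there. In PMMA bone against BNED 2 of 4 rose, against the direction of the fast genes: Acta2 by 1.71 (adjusted p = 0.0250) and Actg2 by 1.98 (adjusted p = 0.0263).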

How the data were processed

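The authors deposited whole-number counts per gene symbol for 16 poly-A libraries. Per the labels, libraries were stranded TruSeq, read from both ends. Tools listed in the submitters' processing notes are TopHat2 2.0.13, Bowtie2 2.2.1, FastQC 0.11.3 and DESeq2, and the build is rn5. The counting program, annotation and strand setting are not given in the sources used here, so antisense reads cannot be told apart. Library totals were 40472228 to 76815879 counts.

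Groups were compared with edgeR 4.0.16 (R 4.3.3; TMM factors, filterByExpr, quasi-likelihood F-test, adjusted p under 0.05) on all 16 libraries and 12857 genes. No covariate was used in the main model. Log2 CPM used a prior count of 2. The fit was tested on simulated data first. Over the comparisons it recovered 25.3 to 31.3% of 2-fold changes and 73 to 81.4% of 4-fold changes. False genes were 4.5 to 7.6% of those called, with 7.6% in PMMA bone against BNED. Whether these rates hold for the deposited libraries was not tested. Shares and ratios are descriptions with no p. Alternatives included DESeq2 1.42.0, limma-voom (limma 3.58.1), other scalings, no filter, a muscle covariate, a rat block and leaving out each library.

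Rat numbers come from the labels and mark the same animal, so they pair the samples; same-rat deviations from group means correlated at -0.285 to 0.496. Replicates of a group differed beyond sampling noise (lowest chi-square per degree of freedom 75.6). Members and lists were chosen with earlier results of these data known. All 10 members, Acta1, Ckm and the slow partner isoforms are named whatever their result, up to 4 called genes of each other list by size (1 such gene is not reported here), and the genes of most similar pattern; bone, erythroid, fibrous and other tissue markers are given as sums or where a result touches them. Sequences and gene order are from RefSeq GRCr8, not the files' build. P-values of the main model rest on the spread between rats within groups, estimated over all 4 groups together, and do not use the pairing by animal.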

Additional observations from a re-analysis of the deposited data

Results flagged for a closer look

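Of 108 groups of 4 values examined, 8 held a library far from the other 3, and chance alone marks about 1 in 20 groups. The PMMA bone of rat 1 was far below the rest for Tnni2, at 18.8 CPM against 100.5 to 107 CPM, and for Tnnc2, at 23.5 CPM against 125 to 134 CPM. It is also the library with 4611 CPM of erythroid markers, and the part of that in these values was not tested. The PMMA bone of rat 3 was far above the rest for the Myh4 share of chain counts, at 15.8% against 2.78 to 4.49%, for the Tnnc2 share of its pair, at 55.2% against 28.5 to 32.4%, and for the log2 ratio of Actn3 to Acta1 and Ckm, at -3.63 against -5.02 to -4.83.

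In the IM of rat 2 the log2 ratio of Atp2a1 to Acta1 and Ckm was -2.89, against -0.96 to -0.61 in the other IM libraries. In PFNU, rat 1 had a Myh1 share of 39.6% of chain counts, against 24.8 to 24.9% in the others. In the PFNU of rat 4 the log2 ratio of Myh2 to Acta1 and Ckm was -2.77, against -3.32 to -3.28.

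For 4 of 27 measures examined every rat moved one way in the defect tissue and the other way in bone. The Tnni2 share of its pair was higher in IM than in PFNU in all 4 rats, by a mean of 7.07 points, and lower in PMMA bone than in BNED in all 4, by a mean difference of -39.2 points. The corresponding means were 3.83 and -38.2 points for Tnnt3 and 5.27 and -35.2 points for Tnnc2. The log2 ratio of Fbp2 to Acta1 and Ckm was 0.16 higher in IM than in PFNU (-0.013 against Ckm alone) and differed by -2.62 between PMMA bone and BNED. These differences between the contrasts were not tested, and the defect-tissue side rests on the contrast treated as used to choose the genes. No chance share was worked out for this count, and the troponin genes rise and fall together, so their shares are not separate results.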

How the results depend on the processing

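In PMMA bone against BNED the 631 genes called became 1518 with DESeq2, 1291 with limma-voom, 1767 on the 8 libraries compared, 2007 with the muscle covariate and 1867 with a wider muscle covariate, and 0 to 2578 when a library was left out (2578 without PMMA bone rat 1; 0 without PMMA bone rat 2, 3 or 4 or BNED rat 1 or 3, with 2019 to 2654 at an unadjusted p under 0.05 in edgeR). The 3 members called became 10, 3, 6, 8 and 9 in the first 5 settings in that order, 1 with the replicate block, and 0 to 4 with a library left out. Of called genes 71.5% were higher, against 55.7% with scaling without muscle genes and 50.3% with limma-voom.

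In IM against PMMA bone the 2860 genes became 908 on the 8 libraries, 1112 and 1172 with the covariates and 1818 to 4047 with a library left out, and 9 members were called whichever library was left out. Myh2 turned to -0.95 and -0.54 with the covariates, and ran from -0.16 to 0.66 with a library left out. In PFNU against BNED the 3884 genes became 1864 and 1990 with the covariates, which called 0 and 0 members (3 and 4 at an unadjusted p under 0.05 in edgeR). The fit with the replicate block is given with the results.

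In IM against PFNU the 111 genes became 563 with DESeq2, 2 with limma-voom, 47 with the replicate block, 0 on the 8 libraries (edgeR; 1323 at an unadjusted p under 0.05), 445 and 214 with the covariates and 11 to 244 with a library left out. The 1 member past the threshold became 2 with the covariate and 0 with RLE factors, no filter, limma-voom, the replicate block, the 8 libraries, scaling without muscle genes, the wider covariate and each library left out. Called genes were 42.3% higher, against 30.3% with RLE factors and 26.5% without muscle genes in the scaling. Signs turned with limma-voom for Myh4 (-0.047), Tnnt3 (-0.30), Tnni2 (-0.13) and Atp2a1 (-0.97), with the covariate for Tnnt3 (-0.18) and Atp2a1 (-0.64), and with the wider one for Atp2a1 (-0.022). With a library left out the ranges were -0.43 to 0.49 for Tnnt3, -0.65 to 0.48 for Atp2a1, -0.41 to 0.61 for Tnni2, -0.25 to 0.83 for Tnnc2, -0.19 to 1.10 for Actn3 and -0.21 to 1.02 for Fbp2, each lowest without IM rat 4. Of the 120 log2 ratio differences recomputed in each comparison, 8 moved by more than 1 SD in PMMA bone against BNED, 27 in IM against PMMA bone, 6 in PFNU against BNED and 8 in IM against PFNU. The causes were not tested. An alternative per coding length was not run. With 4 rats per group, the spread between rats limits these results, and for Fbp2 in PMMA bone the low counts limit them as well.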
